A study of Mus musculus with 8 samples.

Results

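Described here are 35 genes of myelin and of the mature oligodendrocyte, the glial cell that wraps axons of the central nervous system, in RNA-seq counts from mouse hippocampus. The members are a named list taken by gene symbol from a table of 25834 genes, and all 35 were found and had enough reads to be among the 16251 genes tested. RNA was sequenced from 4 control and 4 SAP97-cKO male mice, with 1 library per mouse, to ask which transcripts differ when the scaffold protein SAP97, encoded by Dlg1, is lost. The SAP97-cKO mice were Nestin-cre+/-; SAP97fl/fl, from a Nestin-cre line on a C57Bl/6 background. Littermates that were Nestin-cre+/-, SAP97fl/fl or wild-type served as controls, and the sources used here do not say which control library had which of these genotypes, nor the age of the sequenced mice. The Nestin promoter drives Cre in neural progenitors, which are known to give rise to neurons and glia, and deletion by cell type was not measured in these counts.

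An oligodendrocyte arises from a proliferating precursor. The transcription factors Olig2, Sox10 and Myrf drive its differentiation, and the mature cell then makes large amounts of a small set of membrane and cytoskeletal proteins, together with cholesterol and galactolipids, which are compacted into the myelin sheath. In the hippocampus, myelin is densest in the fibre tracts at its borders, the alveus and fimbria. In bulk tissue, fewer oligodendrocytes and less RNA per oligodendrocyte cannot be told apart.

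The upstream sequence of 4 members is shown to let a reader see the letters that oligodendrocyte regulators are known to prefer. Promoters were taken from RefSeq on GRCm38.p6, and 25 of the 35 members matched, with 35 start sites in all. Adamts4, Bcas1, Carns1, Fa2h, Mbp, Myrf, Ndrg1, Olig1, Sox10 and Trf had no entry in the promoter set used here. The 4 were chosen as Anln, which had the smallest p-value of the members, and as 3 members with 1 start site and with matches. Each run covers positions -250 to -51 from the RefSeq start on the gene's own strand, at chr9:22389257-22389456 (minus strand) for Anln, chr9:120149492-120149691 (plus strand) for Mobp, chr19:41077164-41077363 (minus strand) for Opalin and chr11:73324688-73324887 (minus strand) for Aspa. Capitals mark matches, on either strand, to the letters of SOX proteins (ACAAAG or AACAAT), to E-boxes of the kind bound by basic helix-loop-helix factors such as Olig2 (CAGCTG or CATCTG) and to part of the glucocorticoid receptor element (AGAACA).
Anln: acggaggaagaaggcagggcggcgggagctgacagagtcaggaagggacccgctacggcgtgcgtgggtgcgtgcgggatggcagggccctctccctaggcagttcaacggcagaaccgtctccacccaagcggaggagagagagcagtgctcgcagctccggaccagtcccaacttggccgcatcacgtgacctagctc
Mobp: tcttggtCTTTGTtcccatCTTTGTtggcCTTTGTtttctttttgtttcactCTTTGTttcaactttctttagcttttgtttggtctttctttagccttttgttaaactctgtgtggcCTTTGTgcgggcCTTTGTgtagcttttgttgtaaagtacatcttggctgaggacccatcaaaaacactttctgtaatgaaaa
Opalin: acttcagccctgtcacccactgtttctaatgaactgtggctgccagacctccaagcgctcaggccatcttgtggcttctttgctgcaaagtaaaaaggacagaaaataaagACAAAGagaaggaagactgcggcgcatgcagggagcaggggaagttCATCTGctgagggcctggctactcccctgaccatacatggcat
Aspa: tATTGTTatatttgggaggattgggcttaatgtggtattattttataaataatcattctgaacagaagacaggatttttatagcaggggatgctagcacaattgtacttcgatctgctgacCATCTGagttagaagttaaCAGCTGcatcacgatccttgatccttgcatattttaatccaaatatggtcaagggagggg

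Mobp carried 6 copies of ACAAAG, all on the opposite strand, while the Anln window carried none of the letters searched. Over the 250 bases before each start, either SOX sequence was found in 14 of the 35 member windows, which belong to 11 genes, and in 24.0% of all 32851 windows in the RefSeq table. The E-box CATCTG was found in 8 of 35 member windows (14.4% of all windows), CAGCTG in 5 (13.0%) and AGAACA in 3 (16.1%). Start sites of 1 gene can overlap or share a control region, and a match is a description of letters and not a site of binding.

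Depth was close to equal, at 37388177 to 37426572 counts per library, since the authors resampled the reads to a common depth. Dlg1 went with the labels in every library. It held 4128, 4549.9, 3983 and 4691 normalized counts in control 1 to 4 and 2353, 3065, 2144 and 2009 in SAP97-cKO 1 to 4, so no SAP97-cKO library reached any control library (log2 fold change -0.86, standard error 0.12, adjusted p = 0.143, edgeR). Adjusted p-values (FDR) are by Benjamini-Hochberg over all genes tested, from edgeR unless another tool is named. A normalized count is the deposited count scaled by the TMM factor of its library (0.964 to 1.03) to the mean effective library size.

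For the myelin genes, the first replicate of each group stood apart. Control 1 was the lowest of the 4 control libraries for 33 of 35 members, and SAP97-cKO 1 was the highest of the 4 SAP97-cKO libraries for 35 of 35. Member by member, control 1 was 0.489 to 0.906 times the mean of the other 3 controls (median 0.697), and SAP97-cKO 1 was 1.19 to 1.91 times the mean of the other 3 SAP97-cKO libraries (median 1.62). Over all genes tested these medians were 0.992 and 0.999. The same directions, less marked, were seen for markers of microglia (0.894 and 1.278) and of astrocytes (0.873 and 1.202). Markers of the neighbouring thalamus (0.719 and 1.271) shared them too. For endothelial markers SAP97-cKO 1 was high (1.445), while control 1 was near the other controls (0.960). Neuron markers (1.117 and 0.9498) and meningeal fibroblast markers (0.977 and 0.979) did not share both directions. Nor did markers of choroid plexus (0.336 and 0.478) and striatum (0.983 and 0.713). SAP97-cKO 1 was above control 1 for 33 of the 35 members. The replicate numbers do not mark a shared litter or day in the labels. Because these libraries were noticed from values of these same genes, results are given with and without them, and a result without them is no independent evidence.

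All the members together took 0.542%, 0.789%, 0.743% and 0.898% of the counts of control 1 to 4 and 0.749%, 0.456%, 0.470% and 0.419% of those of SAP97-cKO 1 to 4. Mbp alone, which encodes myelin basic protein, the abundant cytoplasmic protein that zips the sheath together, accounted for 0.180% to 0.402% of a library. The mean log2 CPM (counts relative to the scaled library total) over the members was 5.49, 6.02, 5.92 and 6.02 in the controls and 5.90, 5.24, 5.34 and 5.17 in the SAP97-cKO libraries. SAP97-cKO 4 was the lowest of all 8 libraries for 26 members, while control 4 was the highest for 17 and control 2 for 13.

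**Figure D1:**
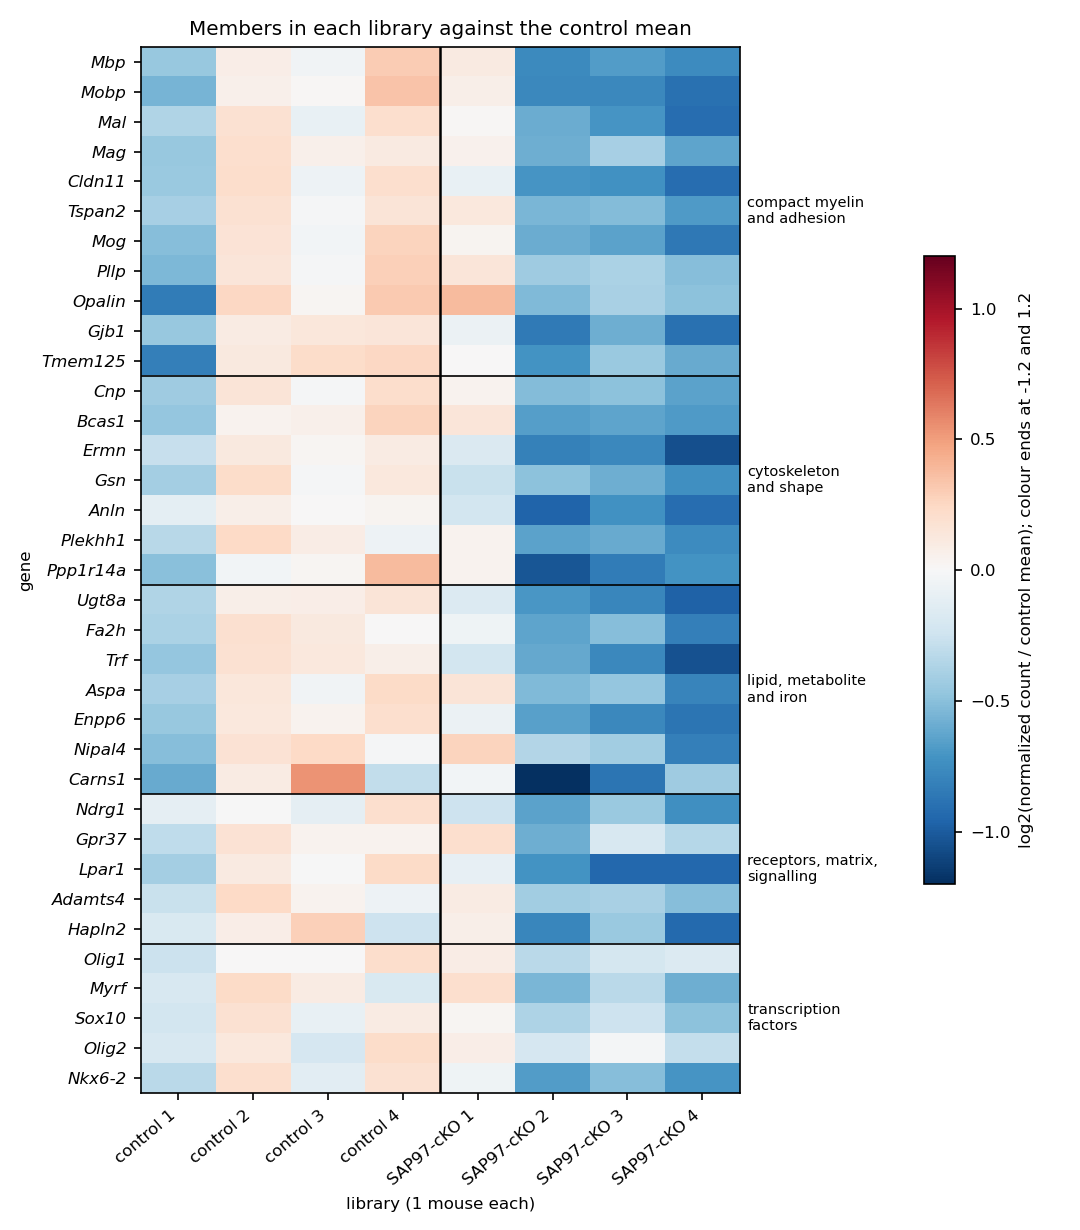
Heat map of the 35 members (rows, grouped by role) in the 8 libraries (columns), coloured by the log2 ratio of the normalized count to the control mean of that gene. Control 1 and SAP97-cKO 2 to 4 were below the control mean (blue) for all 35 members, and SAP97-cKO 1 was below it for 13. The colour ends at -1.2 and 1.2, and 1 value, that of Carns1 in SAP97-cKO 2, lies beyond it.

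With all 8 libraries, every member had a log2 fold change (SAP97-cKO over control) below 0, from -0.68 for Anln to -0.10 for Olig2, that is 62.6% to 93.2% of the control mean. The median over the members was -0.47, against -0.01 over all genes tested. At an FDR under 0.25, the threshold of the study, 0 of 35 members were called by edgeR's quasi-likelihood test, against 0.283% of all genes called lower. The smallest adjusted p-values were 0.268 for Anln and 0.283 for Ndrg1. At an unadjusted p under 0.05, 19 of 35 members were lower and 0 were higher, where 7.01% of all genes tested were lower. Members of 1 cell type vary together from mouse to mouse, so the 35 are not 35 separate observations. The groups were fully separated, with all SAP97-cKO libraries under all controls, for 2 of 35 members, Anln and Ndrg1, against 3.47% of all genes tested. Both are also on the list of differing genes that the study drew from these libraries, so their separation is no independent evidence.

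Single libraries moved these counts. The number called lower at an FDR under 0.25 was 23 without control 1, where 5.83% of all genes were, and 27 without SAP97-cKO 1, where 2.73% were, and it was 0 without any one of the other 6, where at most 0.310% were. The number at an unadjusted p under 0.05 was 31 without SAP97-cKO 1 and 28 without control 1, where 7.65% and 9.34% of all genes were lower. It was 10, 13 and 12 without control 2, 3 or 4, where 4.97%, 4.61% and 7.2% of all genes were. Without SAP97-cKO 2, 3 or 4 it was 11, 10 and 9, against 7.1%, 4.32% and 3.72% of all genes. With both replicate 1 libraries left out, 33 of 35 members were called lower against 8.11% of all genes, with a median log2 fold change of -0.76. The 2 exceptions were Olig2 (adjusted p = 0.385) and Carns1 (0.275). Among these 6 libraries the groups were separated in that direction for 34 members and for 13.3% of all genes. The 2 libraries were noticed from the members' own values, so the member counts without them are no independent evidence. DESeq2 on all 8 libraries called 14 members lower, against 3.62% of all genes, and limma-voom called 1, Anln, against 0.295%.

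**Figure D2:**
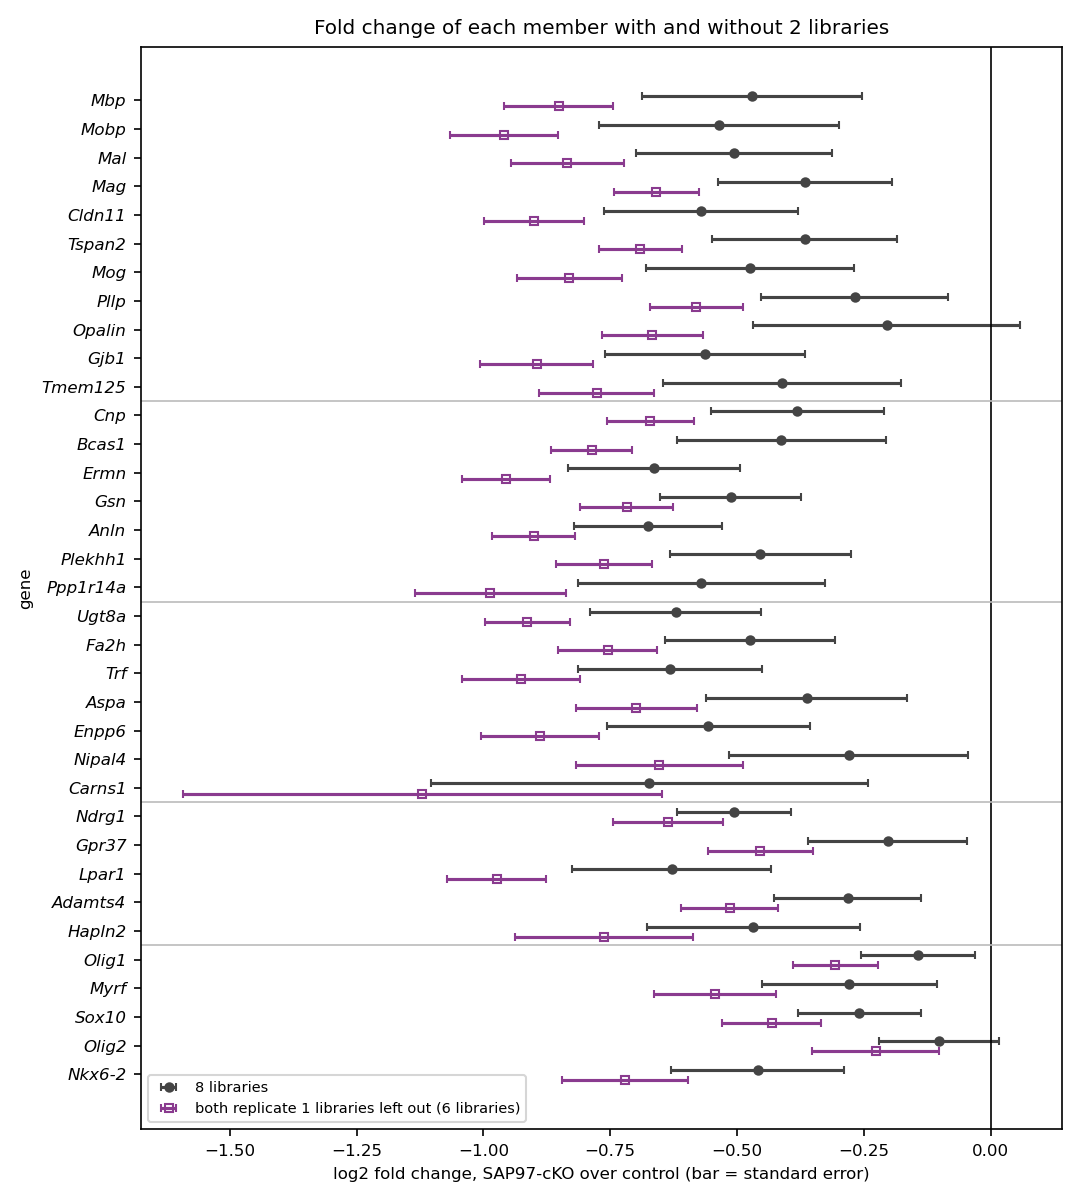
Log2 fold change of each member (SAP97-cKO over control, x axis) with its standard error (bars), from edgeR with 8 libraries (filled circles) and with both replicate 1 libraries left out (open squares). The circles lie between -0.68 and -0.10, and each square lies to the left of its circle, with Olig2 at -0.23 the nearest to 0.

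Levels per length of transcript give the order of the members in control hippocampus. In RPKM (CPM divided by the length in kilobases of the union of annotated exons), Mbp led at 372 ± 78.3 (SD, n = 4), followed by Mobp at 152 ± 37.1, Mal at 145 ± 25.4, Cnp at 132 ± 24.5 and Cldn11 at 115 ± 23.0. The control libraries of Mbp did not overlap those of Mobp, while Mobp, Mal and Cnp each overlapped the next in order. Below a gap between Cldn11 and the next gene came Olig1 at 68.3 ± 8.84, Mog at 56.9 ± 12.6 and Mag at 52.8 ± 9.78, whose ranges overlapped. Carns1, a carnosine synthase, was last at 0.0987 ± 0.0343 and held 3.98 to 24.3 normalized counts per library, and its log2 fold change of -0.67 carried an error of 0.43.

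Among the 11 proteins of compact myelin and of adhesion at the sheath, 5 had an unadjusted p under 0.05 and the median log2 fold change was -0.47. Over all genes tested, 7.01% were lower at that threshold. Members vary together, and the roles were not compared by a test. Mbp held 86178, 124423, 114696 and 145955 normalized counts in control 1 to 4 and 126685, 69227, 74255 and 69887 in SAP97-cKO 1 to 4. SAP97-cKO 1 thus exceeded 3 of the 4 controls, while the other 3 SAP97-cKO libraries were below all controls. Mbp was thereby at a log2 fold change of -0.47 with an error of 0.22 (adjusted p = 0.428). Without both replicate 1 libraries it was at -0.85 with an error of 0.108 (adjusted p = 0.0417). Those libraries were noticed from values of these same genes, so the second p-value is no independent evidence. Mobp, a basic protein of the cytoplasmic face of myelin, held 26457, 40589, 39324 and 49506 counts in the controls and 40996, 22729, 22859 and 20964 in the SAP97-cKO libraries. Its pattern was that of Mbp, with SAP97-cKO 1 second only to control 4 (log2 fold change -0.54, standard error 0.24, adjusted p = 0.418).

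Mog, the glycoprotein on the outermost myelin surface, held 2537, 4066, 3537 and 4367 normalized counts in the controls and 3712, 2396, 2330.2 and 2001 in the SAP97-cKO libraries. Control 1 was close to SAP97-cKO 2 and SAP97-cKO 1 lay among the controls (log2 fold change -0.47, standard error 0.20, adjusted p = 0.413). Mag, the adhesion glycoprotein facing the axon, held 5883, 9267, 8368 and 8669 in the controls and 8319, 5358, 6089.8 and 5204 in the SAP97-cKO libraries. Here control 1 was below SAP97-cKO 3 as well as SAP97-cKO 1 (log2 fold change -0.37, standard error 0.17, adjusted p = 0.433). Cldn11, the claudin of the tight junctions between myelin layers, held 5876, 9276, 7680.4 and 9236 in the controls and 7558, 4913, 4847 and 4265 in the SAP97-cKO libraries. For Cldn11 only SAP97-cKO 1 reached into the control range, and it stayed below control 2 to 4 (log2 fold change -0.57, standard error 0.19, adjusted p = 0.350).

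Mal, a proteolipid of membrane sorting, held 11719, 17089, 14219.6 and 17284 normalized counts in the controls and 15212, 9992, 9234 and 8014 in the SAP97-cKO libraries. Again SAP97-cKO 1 lay within the controls and the other 3 below them (log2 fold change -0.51, standard error 0.19, adjusted p = 0.378). Gjb1, the connexin 32 of myelin gap junctions, held 432, 635, 649.7 and 653 in the controls and 563, 328, 395 and 318 in the SAP97-cKO libraries. Control 2 to 4 lay close together there, with control 1 and SAP97-cKO 1 between them and the 3 lowest libraries (log2 fold change -0.56, standard error 0.20, adjusted p = 0.364). Tspan2, Pllp, Opalin and Tmem125, all membrane proteins, had log2 fold changes of -0.41 to -0.20. For Opalin, control 1 held 535 counts, the fewest of all 8 libraries, and SAP97-cKO 1 held 1246, the most.

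**Figure D3:**
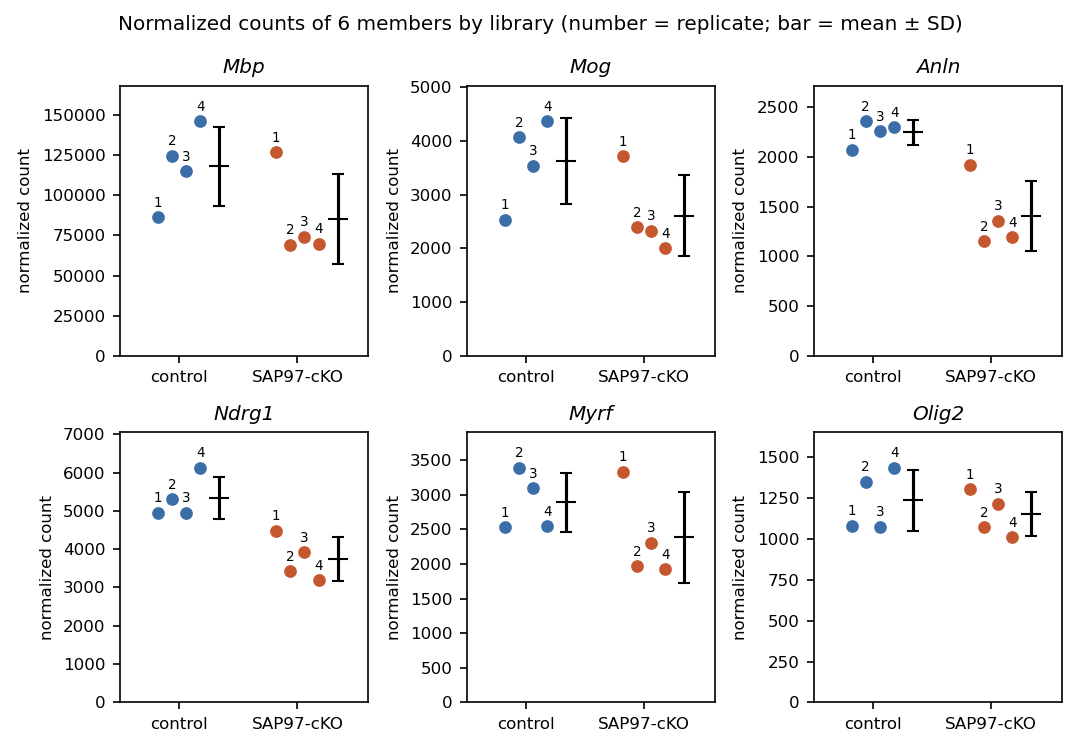
Normalized counts (y axis, from 0) of Mbp, Mog, Anln, Ndrg1, Myrf and Olig2 in each library, with the replicate number above each point and the mean ± SD of the group (n = 4) beside it. The groups do not overlap for Anln and Ndrg1, and for the other 4 genes SAP97-cKO 1 lies within the control range.

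Of the 7 members that act on the cytoskeleton or the shape of myelin, 6 had an unadjusted p under 0.05, where 7.01% of all genes were lower. The median log2 fold change of the 7 was -0.51. Anln (ENSMUSG00000036777, chromosome 9, 22332012 to 22389188, minus strand of GRCm38) encodes anillin, an actin- and septin-binding protein that loads septin filaments in mature myelin. It held 2073, 2359.7, 2260.0 and 2297 normalized counts in the controls and 1924, 1153, 1359 and 1192 in the SAP97-cKO libraries. The groups did not overlap, with SAP97-cKO 1 the nearest to the controls (log2 fold change -0.68, standard error 0.15, adjusted p = 0.268). The exact permutation test, two-sided, gave p = 0.0286, which is the smallest that 4 against 4 can reach. Groups that do not overlap always give this value, so it adds nothing to their separation. Ermn, ermin, an actin-binding protein of late myelination, held 3283, 4316, 4058 and 4277 in the controls and 3531, 2272, 2329 and 1924 in the SAP97-cKO libraries. Control 1 was the one control below SAP97-cKO 1 (log2 fold change -0.66, standard error 0.17, adjusted p = 0.316).

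Cnp, the phosphodiesterase that keeps cytoplasmic channels open in the sheath, held 13374, 19973, 17799 and 20827 normalized counts in the controls and 18479, 12518, 12770.3 and 11499 in the SAP97-cKO libraries. SAP97-cKO 1 again lay among the controls (log2 fold change -0.38, standard error 0.17, adjusted p = 0.422). Gsn, gelsolin, which severs actin filaments, held 2628, 4078, 3454 and 3827 in the controls and 2899, 2481, 2328 and 2097 in the SAP97-cKO libraries. Its SAP97-cKO 1 value was closer to the other SAP97-cKO libraries than for most members, below control 2 to 4 (log2 fold change -0.51, standard error 0.14, adjusted p = 0.316).

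Ppp1r14a, an inhibitor of myosin phosphatase, held 334, 462, 481 and 616 normalized counts in the controls and 489, 233, 265 and 289 in the SAP97-cKO libraries (log2 fold change -0.57, standard error 0.24, adjusted p = 0.410). Plekhh1, a pleckstrin homology domain protein, held 1261, 1879, 1692 and 1527 and then 1636, 1018, 1042 and 944 (log2 fold change -0.45, standard error 0.18, adjusted p = 0.387). In both genes SAP97-cKO 1 was above 2 or more of the controls and the other 3 SAP97-cKO libraries were below all 4. Bcas1, a marker of oligodendrocytes that are beginning to myelinate, was at -0.41 (standard error 0.21, adjusted p = 0.450).

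The 7 enzymes and carriers of lipid, metabolite and iron handling had the lowest median log2 fold change of the 5 roles, -0.56. Of them, 4 had an unadjusted p under 0.05, where 7.01% of all genes were lower. Ugt8a and Fa2h act in the synthesis of galactosylceramide, the main glycolipid of myelin, Ugt8a by adding galactose and Fa2h by hydroxylating the fatty acid. Ugt8a held 2914, 3936, 3947 and 4159 normalized counts in the controls and 3335, 2302, 2178 and 1911 in the SAP97-cKO libraries, while Fa2h held 1591, 2362, 2245 and 2071 and then 1999.9, 1336, 1449 and 1171. For each, SAP97-cKO 1 was above control 1 alone and the other 3 SAP97-cKO libraries were below every control. On the log2 scale the difference was -0.62 for Ugt8a (standard error 0.17, adjusted p = 0.316) and -0.47 for Fa2h (0.17, adjusted p = 0.368).

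Trf, transferrin, the iron carrier that oligodendrocytes make in the brain, held 834, 1302, 1257 and 1205 normalized counts in the controls and 987, 751, 673 and 556 in the SAP97-cKO libraries. Choroid plexus epithelium also makes transferrin, and the summed level of 12 markers of that epithelium ran from 105 to 6975 CPM over the libraries. Their part in the Trf values was not tested. Control 1 was below SAP97-cKO 1, with no other control in the SAP97-cKO range (log2 fold change -0.63, standard error 0.18, adjusted p = 0.331). Enpp6, a choline phosphodiesterase of newly formed oligodendrocytes, held 235, 352, 332 and 369.8 in the controls and 308, 205, 188 and 175 in the SAP97-cKO libraries, the same arrangement (log2 fold change -0.56, standard error 0.20, adjusted p = 0.368). Aspa, which cleaves N-acetylaspartate into aspartate and acetate for lipid synthesis, and Nipal4, a magnesium transporter-like protein, were at -0.36 (standard error 0.20) and -0.28 (0.24), with adjusted p-values of 0.480 and 0.632.

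Of the 5 members of receptors, matrix and signalling, 3 had an unadjusted p under 0.05, where 7.01% of all genes were lower. Ndrg1 (ENSMUSG00000005125, chromosome 15, 66929318 to 66969640, minus strand) encodes a protein of myelinating glia whose loss causes a demyelinating neuropathy and which is a known substrate of the kinase Sgk1. It held 4946, 5302, 4951 and 6126 normalized counts in the controls and 4480.4, 3417, 3928 and 3192 in the SAP97-cKO libraries. The groups did not overlap (log2 fold change -0.51, standard error 0.11, adjusted p = 0.283), and control 1 was close to control 3. The exact permutation test gave p = 0.0286, as it must for groups that do not overlap. Lpar1, a receptor for lysophosphatidic acid, held 1332, 1903, 1756 and 2074 in the controls and 1651, 1074, 922 and 922 in the SAP97-cKO libraries. SAP97-cKO 1 exceeded control 1 only (log2 fold change -0.63, standard error 0.20, adjusted p = 0.341).

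Hapln2, a link protein of the matrix at nodes of Ranvier, held 557, 672, 774 and 532 normalized counts in the controls and 667, 368, 465 and 332 in the SAP97-cKO libraries. It is a member for which control 4, not control 1, was the lowest control (log2 fold change -0.47, standard error 0.21, adjusted p = 0.423). Gpr37, an orphan receptor that restrains differentiation, and Adamts4, a matrix protease, were at -0.20 and -0.28, with adjusted p-values of 0.605 and 0.460.

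The 5 transcription factors had the median log2 fold change nearest to 0, -0.26. Of them, 1, Nkx6-2, had an unadjusted p under 0.05, where 7.01% of all genes were lower. Myrf, the factor that switches on myelin genes in differentiating cells, held 2528, 3392, 3094 and 2551 normalized counts in the controls and 3333, 1972, 2307 and 1924 in the SAP97-cKO libraries (log2 fold change -0.28, standard error 0.17, adjusted p = 0.526). Sox10, which is needed throughout the lineage, held 1642, 2161, 1788 and 2039 in the controls and 1939, 1480.2, 1601 and 1357 in the SAP97-cKO libraries (log2 fold change -0.26, standard error 0.12, adjusted p = 0.433). In both, SAP97-cKO 1 was inside the control range and the other 3 were below all controls.

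Olig2, expressed in precursors as well as in mature cells, held 1082, 1352, 1077 and 1437 normalized counts in the controls and 1306, 1074, 1218 and 1012 in the SAP97-cKO libraries. The groups overlapped broadly with all 8 libraries (log2 fold change -0.10, standard error 0.12, adjusted p = 0.728). Without the replicate 1 libraries they still overlapped, since SAP97-cKO 3 was above control 3. Olig1, its neighbour on chromosome 16 and likewise shared with precursors, was at -0.14 (standard error 0.11, adjusted p = 0.608). Nkx6-2, a homeobox factor of myelinating cells, held 440.2, 637, 505 and 627 in the controls and 534, 347, 387 and 338 in the SAP97-cKO libraries, with control 1 and 3 below SAP97-cKO 1 (log2 fold change -0.46, standard error 0.17, adjusted p = 0.371).

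When each member was set against the mean log2 CPM of the 35 in the same library, the difference between the group means (SAP97-cKO minus control) was between -0.26 and 0.35. Anln, Ermn and Lpar1, at -0.26, -0.24 and -0.20, were relatively lower in SAP97-cKO libraries, with groups that did not overlap. Olig2 and Olig1 were relatively higher, by 0.35 and 0.31, followed by Opalin (0.26) and Gpr37 (0.23). Subtracting the mean of the same 35 genes places some members below 0 and others above it. No share over all genes was computed for this measure, and Anln is on the study's own list of differing genes. These are descriptions within the list, with no test.

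A list of 54 further oligodendrocyte and myelin genes that are not members had a median log2 fold change of -0.32, with 45 below 0. At an unadjusted p under 0.05, 16 were lower and 0 higher, where 7.01% of all genes tested were lower. At an FDR under 0.25, 2 of the 54 were called lower, Sgk1 and Cryab, against 0.283% of all genes. Both are also on the list of differing genes that the study drew from these libraries, so these calls are no independent evidence. Sgk1, a stress-responsive kinase expressed in oligodendrocytes among other cells, held 3927, 4426, 3686 and 3529 normalized counts in the controls and 2574, 2527, 2733 and 2695 in the SAP97-cKO libraries. For Sgk1, SAP97-cKO 1 lay with the other SAP97-cKO libraries and control 1 with the other controls (log2 fold change -0.56, standard error 0.077, adjusted p = 0.143). Cryab, a small heat shock protein of oligodendrocytes, was called at the edge of the threshold (log2 fold change -0.51, standard error 0.11, adjusted p = 0.2496), with SAP97-cKO 1 at 2915, below the lowest control at 3086. Of these 54 genes, 38 were called lower with both replicate 1 libraries left out, against 8.11% of all genes. Those libraries were picked from the values of the members.

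Genes of the oligodendrocyte precursor, the stage before most members are made, lay on both sides of 0. The 17 precursor genes had a median log2 fold change of 0.02, with 8 below and 9 above 0, and 0 were called at an FDR under 0.25. At an unadjusted p under 0.05, 1 was lower and 3 were higher, against 1139 and 768 of all 16251 genes tested. Without both replicate 1 libraries 0 were called lower and 2 higher at an FDR under 0.25, against 1324 and 996 of 16327. The mean log2 CPM of the list lay between 4.53 and 4.70 in all 8 libraries, with overlapping groups. Its summed level, which the most abundant genes set, was 819 to 934 CPM in controls and 974 to 1074 CPM in SAP97-cKO libraries, so every SAP97-cKO library was above the controls on that measure. Whether the precursor list differs from the members was not tested.

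Cholesterol and sphingolipids are the main lipids of the sheath. The 23 cholesterol synthesis genes had a median of -0.09, with 2 lower and 0 higher at an unadjusted p under 0.05. Of all genes tested, 7.01% were lower at that threshold, which is used for the next lists too. The 14 myelin sphingolipid genes, of which Ugt8a and Fa2h are members, had a median of -0.14, with 5 lower and 0 higher. Ugt8a and Fa2h are among the 5, and others of the 5 are on the list of 54, so this is no separate observation. The 18 glucocorticoid-induced genes, a response that acts on oligodendrocytes and many other cells, had a median of -0.15, with 6 lower and 0 higher. Sgk1, Tsc22d3 and Sult1a1 were past the FDR threshold, as were 0.283% of all genes, counted lower. These genes are also on the study's own list of differing genes from these libraries and are no independent evidence. Sgk1 is on the list of 54 as well, so its call is the one already given there.

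**Figure D4:**
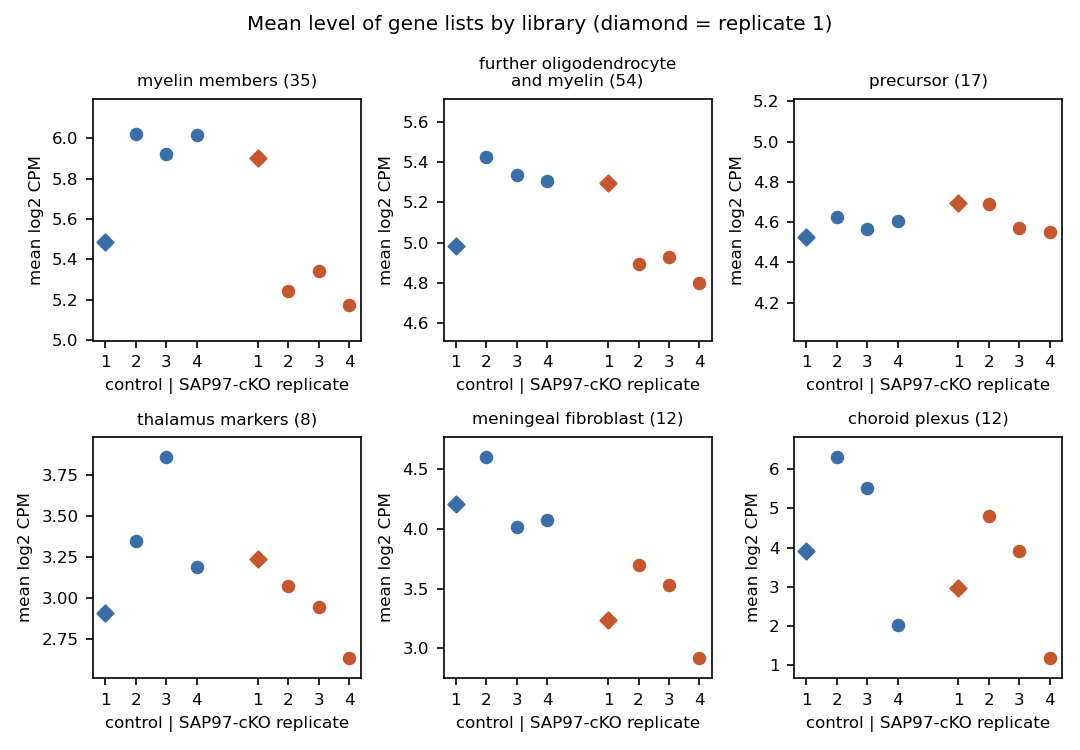
Mean log2 CPM of 6 gene lists (number of genes in brackets) in each library, with replicate 1 as a diamond, controls in blue and SAP97-cKO in orange, each panel on its own y axis. In the myelin, further oligodendrocyte and thalamus panels, control 1 is the lowest control and SAP97-cKO 1 is the highest SAP97-cKO library. The precursor panel runs from 4.53 to 4.70 with overlapping groups, and meningeal markers separate the groups.

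Markers of other cells and of adjoining tissue also differed between libraries. All 12 meningeal fibroblast markers had log2 fold changes below 0 (median -0.90). Of these, 8 were at an unadjusted p under 0.05 and 6 past the FDR threshold, where 7.01% and 0.283% of all genes tested were lower. The 6 are also on the study's own list of differing genes from these libraries and are no independent evidence. The summed level of the 12 markers was 302 to 598 CPM in controls and 192 to 325 CPM in SAP97-cKO libraries. All 12 choroid plexus markers were below 0 (median -1.48) with 0 at an unadjusted p under 0.05, and their sum ran from 181 to 6975 CPM in controls and from 105 to 2398 CPM in SAP97-cKO libraries. In these lists the replicate 1 libraries did not stand apart as they did for myelin, since SAP97-cKO 1 was below SAP97-cKO 2 and 3 on both. All 8 markers of the thalamus, a myelin-rich neighbour of the hippocampus, were below 0 (median -0.41, 1 at an unadjusted p under 0.05), with a mean log2 CPM of 2.90, 3.35, 3.86 and 3.19 in the controls and 3.24, 3.07, 2.94 and 2.63 in the SAP97-cKO libraries. As for the members, control 1 was the lowest control and SAP97-cKO 1 the highest SAP97-cKO library. For the thalamus markers control 1 was 0.719 times the mean of the other controls and SAP97-cKO 1 was 1.27 times the mean of the other SAP97-cKO libraries (medians over genes). Without both replicate 1 libraries, 4 of the 8 thalamus markers were called lower at an FDR under 0.25, against 8.11% of all genes. Their median log2 fold change was then -0.55. Those libraries were picked from the values of the members.

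All 10 endothelial markers had log2 fold changes below 0 (median -0.25). Of these, 2 were at an unadjusted p under 0.05, against 7.01% of all genes lower, and 0 past the FDR threshold in edgeR. With both replicate 1 libraries left out, 6 were called lower, against 8.11% of all genes. The 10 markers lay at a mean log2 CPM of 4.68 to 4.73 in the controls and at 4.84, 4.40, 4.47 and 4.15 in SAP97-cKO 1 to 4. SAP97-cKO 1 was thus again the highest of its group while control 1 was not apart. The 10 microglia, 10 astrocyte and 10 neuron markers had medians of 0.02, 0.07 and 0.10, and the 6 striatum markers 0.05. For the microglia and astrocyte markers, control 1 had the lowest mean log2 CPM of the controls (4.85 and 8.12). SAP97-cKO 1 had the highest of the SAP97-cKO libraries (5.24 and 8.45), which was not so for the neuron markers. At an unadjusted p under 0.05, 3 neuron, 2 astrocyte, 1 striatum and 0 microglia markers were higher, against 768 of all 16251 genes. Of the astrocyte markers 1 was lower, Gjb6, which was past the FDR threshold and is on the study's own list. Of the neuron markers 8 lay above 0. Without both replicate 1 libraries, 3 of them were called higher, where 996 of 16327 genes were. No marker was at 0 in any library. The part of these tissues and cells in the myelin values was not tested.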

How the data were processed

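RNA-seq libraries of hippocampus (4 control, 4 SAP97-cKO male mice) were analysed from 1 table of gene counts. The authors aligned reads to GRCm38.p5 (mm10) with STAR 2.5.3a, removed ribosomal and mitochondrial reads and resampled to a common depth with PORT, and deposited whole-number counts per Ensembl gene. The sources used here do not say whether counting used strand. Columns of the authors' own comparison (a log2 fold change with its p-value and q-value) were not used. From the counts, genes were kept with filterByExpr by genotype (minimum count 10, minimum total 15; 9583 of 25834 removed), scaled by TMM and compared in R 4.3.3 by edgeR 4.0.16 (quasi-likelihood), adjusting by Benjamini-Hochberg over 16251 genes, with an FDR under 0.25 as in the study. The code was tested on simulated data. Alternatives used limma 3.58.1, DESeq2 1.42.0, other scaling or filters, and left out libraries. Exact permutation tests covered the 70 assignments of 8 libraries. RPKM used union exon lengths of GENCODE M21. No pair of libraries agreed within sampling noise (chi-square per gene 9.08 to 67.2). Members, gene lists and motifs were chosen with earlier results of these data known. All 35 members are reported, with every library's value for those at an unadjusted p under 0.05 or with groups that do not overlap, and for Mbp, Mog, Mag, Cnp, Myrf, Sox10 and Olig2. Genes of other lists are named only past the FDR threshold.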

Additional observations from a re-analysis of the deposited data

Results flagged for a closer look

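In 10 of 70 groups of 4 libraries (35 members in each genotype), 1 library lay farther from the others than Dixon's 95% critical value for the ratio of its gap to the range, where chance gives about 1 in 20 groups. Since the members vary together, these are not separate observations. SAP97-cKO 1 was the high library in 8 of them: Bcas1 (0.953), Mbp (0.912), Mobp (0.905), Opalin (0.883), Plekhh1 (0.857), Tspan2 (0.837), Adamts4 (0.832) and Pllp (0.831). Control 1 was the low library in the other two, Gjb1 (0.917) and Tmem125 (0.83).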

How the results depend on the processing

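All members tested had log2 fold changes below 0 under every alternative run, and the median stayed between -0.36 and -0.64 with 1 library left out and between -0.46 and -0.51 under the other tests, scalings and filters with 8 libraries. The number of members called lower at an FDR under 0.25, 0 in edgeR with TMM, was 14 in DESeq2, 1 (Anln) in limma-voom, 2 (Anln and Ndrg1) without scaling and 4 without the filter on low counts (Ugt8a and Ermn in addition). Over all genes, 0.283% were called lower in edgeR with TMM and 3.62%, 0.295%, 0.578% and 0.345% in these 4. With the replicate block, that is the replicate number as a block, it was 2 (Anln and Ndrg1), against 1.44% of all genes. The numbers do not pair the mice in the labels, the correlations of same-numbered libraries were -0.06, 0.20, 0.09 and 0.26, and 3 of 4 control libraries correlated best with their own number. With 1 library left out it ran from 0 to 27 (0% to 5.83% of all genes), the count at an unadjusted p under 0.05 from 9 to 31 (19 with all; 3.72% to 9.34% of all genes) and the count of members without overlap from 2 to 26 (3.98% to 8.01% of all genes). With both replicate 1 libraries left out these counts were 33, 34 and 34 (8.11%, 9.86% and 13.3% of all genes), and the median was -0.76. Those libraries were noticed from values of the members, so these figures are no independent evidence. The cause of these differences was not tested beyond the libraries left out. With 10 counts required in every library, Carns1 was not tested and 34 members remained. Carns1 had the fewest reads of the members, at 3.98 to 24.3 normalized counts per library, and counting error weighs most there.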
